A study of Mus musculus with 9 samples.

Results

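The gasdermin family of mouse ear epidermis was followed through the 8 genes whose symbol in the deposited count table is Gsdma, Gsdma2, Gsdma3, Gsdmc, Gsdmc2, Gsdmc3, Gsdmc4 or Gsdmd, which are 8 of the 52550 genes listed. The libraries came from epidermal ear sheets of wild-type male C57BL/6 mice (C57BL/6J in the methods) aged 8 weeks, with 3 libraries in each of 3 groups. The control group (VAS + H2O) received Vaseline on the skin and water by gavage, the model group (IMQ + H2O) received imiquimod and water, and the XYF group (IMQ + XYF) received imiquimod and the herbal decoction Xiao-Yin-Fang. Imiquimod is an agonist of Toll-like receptor 7 that gives a psoriasis-like dermatitis when applied to mouse skin. The topical agent was applied for 5 days and the gavage of 200 µl lasted 10 days, with XYF at 23.3 mg/g. The methods give 2 mice as the source of the ear sheets and leave unsaid whether each library had its own 2. Each group was sequenced with n = 3, and the sources used here do not say whether these were separate animals, so p-values measure only the spread between these libraries, which may be technical. The comparison of IMQ + H2O with VAS + H2O addresses the effect of imiquimod, and that of IMQ + XYF with IMQ + H2O the effect of the decoction.

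Gasdermins are pore-forming proteins. In the intact protein the C-terminal part holds the N-terminal part inactive, and a protease that cuts the linker between them frees the N-terminal fragment to insert into the plasma membrane. The pores release cytosolic contents such as interleukin 1 and can end in a lytic death called pyroptosis. GSDMD is the substrate of the inflammatory caspases 1 and 11 and is best known from myeloid cells. The A members are expressed in stratified epithelium, where human GSDMA is cut by a streptococcal protease in keratinocytes, and mutations of Gsdma3 cause hair loss in mice. GSDMC can be cut by caspase 8. mRNA counts report neither the proteins nor their cleavage.

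The 8 genes lie at 3 loci on the GRCm38 assembly. Gsdma3 (ENSMUSG00000064224, chr11:98626360-98638226), Gsdma2 (ENSMUSG00000017211, chr11:98646759-98657964) and Gsdma (ENSMUSG00000017204, chr11:98664351-98677708) are side by side on the plus strand within 51349 bp. Gsdmc (ENSMUSG00000079025, chr15:63775968-63808759), Gsdmc2 (ENSMUSG00000056293, chr15:63824346-63845177), Gsdmc3 (ENSMUSG00000055827, chr15:63857724-63878558) and Gsdmc4 (ENSMUSG00000055748, chr15:63891264-63912297) are side by side on the minus strand within 136330 bp. Gsdmd (ENSMUSG00000022575, chr15:75862327-75867408) stands apart on the plus strand. All are protein-coding genes, and no other annotated gene overlaps any of them.

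The members of a locus are close copies, which matters for how their reads can be told apart. The first 60 coding bases are shown for the A and C members, from exon sequence on GRCm38, with capitals at the positions that differ within each set.
Gsdma, chr11:98666061-98666120, plus strand: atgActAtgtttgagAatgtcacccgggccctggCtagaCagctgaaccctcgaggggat
Gsdma2, chr11:98649054-98649113, plus strand: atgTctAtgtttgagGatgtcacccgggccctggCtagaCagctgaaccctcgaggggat
Gsdma3, chr11:98629352-98629411, plus strand: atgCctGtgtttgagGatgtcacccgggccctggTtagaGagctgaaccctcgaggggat
Gsdmc, chr15:63804533-63804592, minus strand: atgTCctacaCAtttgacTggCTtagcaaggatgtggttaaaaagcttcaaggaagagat
Gsdmc2, chr15:63835884-63835943, minus strand: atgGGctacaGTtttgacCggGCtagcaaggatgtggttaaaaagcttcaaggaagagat
Gsdmc3, chr15:63869238-63869297, minus strand: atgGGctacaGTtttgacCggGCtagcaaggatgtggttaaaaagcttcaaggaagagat
Gsdmc4, chr15:63902871-63902930, minus strand: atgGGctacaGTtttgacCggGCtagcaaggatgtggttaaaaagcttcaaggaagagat
Among the A members 5 of these positions vary. Gsdmc differs from the other C members at 7, and Gsdmc2, Gsdmc3 and Gsdmc4 are identical over the whole stretch.

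Over the full coding sequence, Gsdma was 90.9% identical to Gsdma2 and 89.8% to Gsdma3. Gsdmc was 87.0% to 87.5% identical to the other C members, while Gsdmc2 and Gsdmc3 shared 97.1% of their aligned coding bases. Identity between the A set, the C set and Gsdmd was 58.3% to 61.5%. Of all 50-base stretches of the transcript, 48.5% in Gsdmc2, 41.8% in Gsdmc3 and 39.0% in Gsdmc4 also occur in another gene, against 16.4% in Gsdmc, 8.26% in Gsdma, 5.25% in Gsdma3 and 0% in Gsdmd. Of the 2113 such stretches in Gsdmc2, 240 also occur in Gsdmc. How reads with several matches were counted is not given in the sources used here. The split of counts among the C members, Gsdmc2, Gsdmc3 and Gsdmc4 above all, is therefore uncertain. The same limit holds in part for Gsdma2 beside Gsdma.

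**Figure D1:**
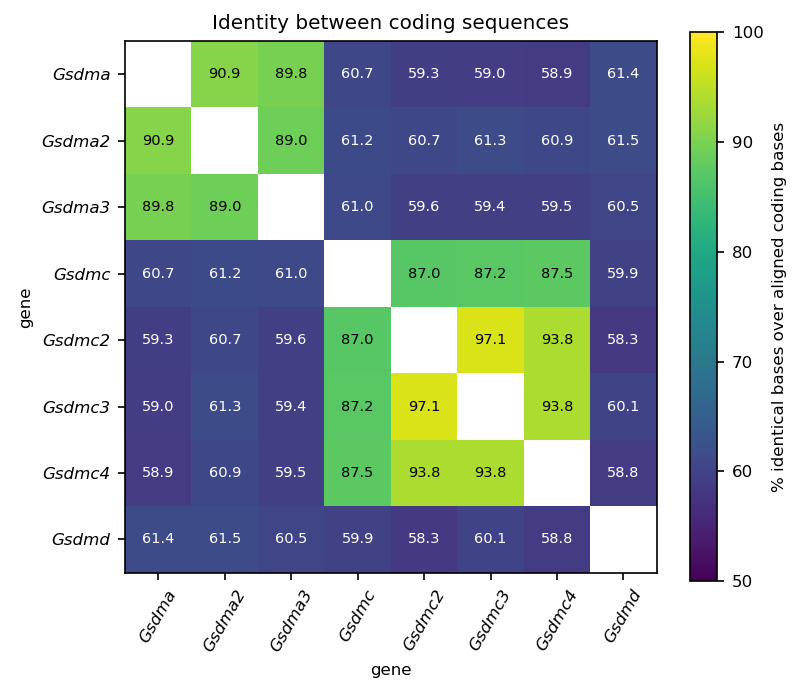
Percent identity over aligned coding bases for each pair of the 8 gasdermin genes, with gene names on both axes and the scale starting at 50%. Pairs within a locus lie between 87.0% and 97.1%, and all other pairs between 58.3% and 61.5%.

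Levels are given as CPM, the counts of a gene relative to its library's total, after TMM factors had adjusted that total for library composition. Totals were 30298275 to 64771160 counts per library. A floor of 3 counts corresponds to 0.0463 to 0.0990 CPM and covers counting error only. The keratinocyte identity of the sheets was clear from summed basal keratins and partners at 17380 to 24997 CPM and summed suprabasal and granular genes at 53821 to 91929 CPM. Libraries differed in genes of other tissues. The summed level of 5 dermal fibroblast genes was 519 CPM in VAS + H2O replicate 2 and 37.8 to 175 CPM in the others, and cartilage genes summed to 151 to 358 CPM in VAS + H2O, against 29.8 to 69.4 CPM in IMQ + H2O and 108 to 166 CPM in IMQ + XYF, with Matn1 at 0 in all 9 libraries. The neutrophil gene Csf3r had 1642 counts in IMQ + H2O replicate 3 and 1459 in IMQ + XYF replicate 1, against 0 to 214 in the other 7. Results are therefore also given without these libraries where that changes them. In whole sheets, fewer cells of a type and less RNA per cell cannot be told apart.

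Divided by exon length, Gsdma was the most abundant gasdermin in every group, at 48.8 ± 2.70 CPM per kb of exon (SD, n = 3) in VAS + H2O, against 78.2 ± 9.36 in IMQ + H2O and 75.0 ± 4.32 in IMQ + XYF. Gsdmc was the next in each group, at 3.63 ± 0.432, 28.9 ± 6.96 and 30.8 ± 4.38 CPM per kb. Gsdma3 followed at 0.922 ± 0.410, 5.20 ± 1.46 and 6.41 ± 1.05 CPM per kb. In VAS + H2O the libraries of Gsdma3 overlapped those of Gsdmd (0.763 ± 0.287), and those of Gsdma2 (0.384 ± 0.0939) overlapped those of Gsdmc2 (0.266 ± 0.146), so neighbours in these pairs did not differ beyond their spread. Under imiquimod Gsdmc2 and Gsdmd overlapped in the same way, at 1.16 ± 0.529 and 1.06 ± 0.211 CPM per kb in IMQ + H2O and 1.25 ± 0.263 and 0.997 ± 0.168 in IMQ + XYF. Gsdma2 lay under them at 0.365 ± 0.188 and 0.374 ± 0.0596 CPM per kb, and Gsdmc3 and Gsdmc4 were lowest in every group.

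Of the family's summed level per kb, Gsdma made up 88.3% to 90.4% in the VAS + H2O libraries, against 59.6% to 72.5% in IMQ + H2O and 61.6% to 67.4% in IMQ + XYF. The share of Gsdmc was 5.69% to 7.59% in VAS + H2O, against 20.3% to 31.7% in IMQ + H2O and 24.2% to 29.7% in IMQ + XYF. Gsdma3 took 0.967% to 2.35%, 3.30% to 5.97% and 4.42% to 6.26%, and Gsdmd stayed under all of these in IMQ + H2O and IMQ + XYF, at 0.808% to 1.13% and 0.674% to 0.994%. The ratio of Gsdma to Gsdmc per kb was 13.2, 11.7 and 15.9 in VAS + H2O, against 3.08, 3.56 and 1.88 in IMQ + H2O and 2.78, 2.54 and 2.08 in IMQ + XYF, so no imiquimod library reached the range of the control libraries. Summed over the 8 genes the family stood at 147 ± 7.89, 298 ± 15.0 and 295 ± 16.3 CPM (SD, n = 3 each), a mean 2.03 and 2.01 times that of VAS + H2O in IMQ + H2O and IMQ + XYF.

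**Figure D2:**
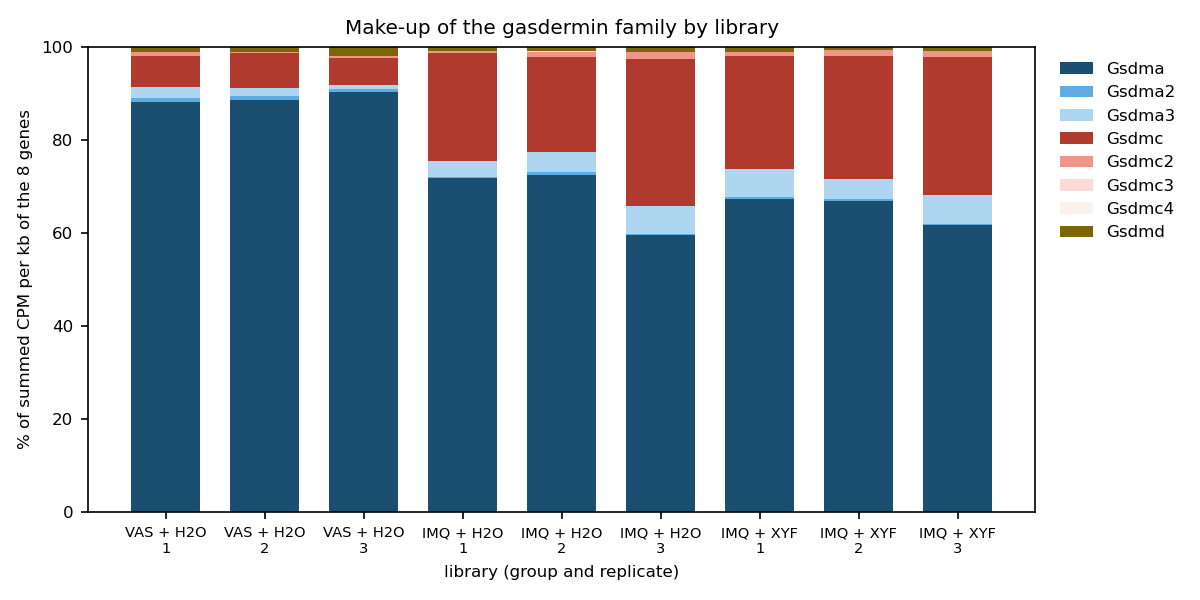
Make-up of the gasdermin family in each of the 9 libraries, as the percentage of the summed CPM per kb of the 8 genes (y axis) for each library (x axis), with 1 colour per gene. Gsdma fills 88.3% to 90.4% of the bar in the control libraries and 59.6% to 72.5% in the imiquimod libraries, where Gsdmc fills 20.3% to 31.7%.

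Under imiquimod 3 of the 8 gasdermin genes rose, Gsdmc, Gsdma3 and Gsdmc2. Gsdma was higher by a smaller fold, and Gsdma2 and Gsdmd did not pass the test. Genes were called at an adjusted p of at most 0.05 in edgeR's quasi-likelihood test over all genes with a log2 fold change of 1 or more in either direction. Of the 18009 genes tested in IMQ + H2O against VAS + H2O, 7.68% were called, 3.64% as higher and 4.04% as lower. Among the 8 members, 6 passed the filter on low counts and 3 of these were called, all as higher. By glmTreat, with a log2 fold change of 1 as the null, Gsdmc alone was called. Because a gene high in 1 group can pass the filter through that group, this count describes only the tested members. At an unadjusted p under 0.05 stood 4 of the 6, beside 37.9% of all genes tested. Their median log2 fold change was 1.38, beside -0.03 over all genes tested. Groups did not overlap for 4 of the 6 members that passed the filter, beside 44.5% of all genes that passed it over the 9 libraries.

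Gsdmc gave the largest fold change among the 6 tested members. It stood at 9.27, 9.41 and 7.54 CPM in VAS + H2O replicates 1, 2 and 3 and at 67.6, 53.9 and 87.2 CPM in IMQ + H2O. Every imiquimod library lay far above every control library, and 263 to 3766 counts stood behind these values. The fold change was 7.88 (log2 2.98 ± 0.20 SE, n = 3 per group, edgeR adjusted p = 0.00198), with a 95% interval of 5.64 to 11.0.

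Gsdma3, the member whose mutations affect hair, stood at 2.18, 1.43 and 0.860 CPM in VAS + H2O and at 6.43, 7.75 and 11.0 CPM in IMQ + H2O. Here too the lowest imiquimod library was above the highest control library. It rose 5.54-fold (log2 2.47 ± 0.38 SE, edgeR adjusted p = 0.0101). Its neighbour Gsdma2 stood at 1.42, 1.27 and 0.860 CPM in VAS + H2O and 1.11, 1.72 and 0.556 CPM in IMQ + H2O, and the groups overlapped throughout. The log2 fold change of Gsdma2 was -0.09, with a 95% interval from -1.14 to 0.95 (edgeR adjusted p = 0.899), a width that leaves differences of nearly 1 in either direction undetectable here.

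Gsdma, the abundant member, stood at 138, 125 and 136 CPM in VAS + H2O and 236, 218 and 186 CPM in IMQ + H2O. The groups did not overlap, and the fold change was 1.59 (log2 0.67 ± 0.10 SE, edgeR adjusted p = 0.0105), past the threshold on p and short of the threshold on fold. Its mean went from 133 to 213 CPM. The 7 suprabasal and granular keratinocyte genes summed to 53821 to 67058 CPM in VAS + H2O and 56562 to 91929 CPM in IMQ + H2O, with 2 of 7 called higher (Krt1 and Ivl). The 9 sebaceous genes summed to 2921 to 5443 CPM and 1771 to 2394 CPM, with 3 of 9 called lower (Scd1, Scd3 and Mogat1). Scd1 made most of that sum, at a mean of 3743 CPM in VAS + H2O and 1703 CPM in IMQ + H2O. Among the sebaceous genes not called, the means of Awat1, Awat2 and Elovl3 were higher in IMQ + H2O and those of Mc5r, Cidea and Far2 lower. The 11 inner root sheath and cortex genes of the hair follicle summed to 17.7 to 35.9 CPM and 18.5 to 19.6 CPM, with Krt72 at 0 and 0 of 4 tested genes called by edgeR. The 5 T cell genes summed to 45.2 to 52.4 CPM and 25.6 to 35.1 CPM, ranges that do not overlap, with 1 of 5 called lower (Cd3d). The 6 basal keratinocyte genes summed to 17380 to 22487 CPM in VAS + H2O and 21772 to 24997 CPM in IMQ + H2O, ranges that overlap. Of these 6 genes 1 was called lower, Krt15, at a mean of 2284 CPM in VAS + H2O and 538 CPM in IMQ + H2O. The mean of Krt14 went the other way, from 5959 to 9916 CPM. Means of Krt5, Trp63 and Itgb4 were also higher in IMQ + H2O, and that of Col17a1 was lower. The part of these cell types in the Gsdma and Gsdma3 values was not tested.

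Gsdmc2 stood at 0.973, 0.304 and 0.574 CPM in VAS + H2O and 1.28, 3.22 and 3.54 CPM in IMQ + H2O. The lowest imiquimod library was close to the highest control library, and the counts were 10 to 153. The part of reads from the more abundant Gsdmc in these counts was not tested. It rose 4.25-fold (log2 2.09 ± 0.53 SE, edgeR adjusted p = 0.0348). This call was lost when VAS + H2O replicate 2, VAS + H2O replicate 3, IMQ + H2O replicate 2 or IMQ + H2O replicate 3 was left out, with log2 fold changes of 1.78, 2.06, 1.97 and 1.84 and adjusted p of 0.0897, 0.0861, 0.0814 and 0.0964. Gsdmc3 had no count in any VAS + H2O library, 0, 16 and 3 counts in IMQ + H2O and 10, 6 and 0 in IMQ + XYF. Gsdmc4 had 0 counts in all 9 libraries, which allows up to 0.0463 to 0.0990 CPM, and neither gene passed the filter for a test.

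Gsdmd, the member cut by inflammatory caspases, stood at 1.59, 1.27 and 2.58 CPM in VAS + H2O and 2.32, 2.13 and 3.08 CPM in IMQ + H2O. The groups overlapped, since VAS + H2O replicate 3 was above IMQ + H2O replicates 1 and 2. Its log2 fold change was 0.46 with a 95% interval from -0.29 to 1.21 (edgeR adjusted p = 0.329). A 2.31-fold rise lies within that interval. The 5 macrophage and monocyte genes summed to 37.6 to 48.3 CPM in VAS + H2O and 37.5 to 55.9 CPM in IMQ + H2O, ranges that overlap. Csf1r made most of that sum, at a mean of 32.4 CPM in VAS + H2O and 30.5 CPM in IMQ + H2O. Cd68 went from a mean of 6.08 to 9.30 CPM without overlap. Means of Adgre1, Ccr2 and Lyz2 were also higher in IMQ + H2O, with ranges that overlapped. None of the 4 tested genes of this list was called, and the part of these cells in the Gsdmd values was not tested.

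**Figure D3:**
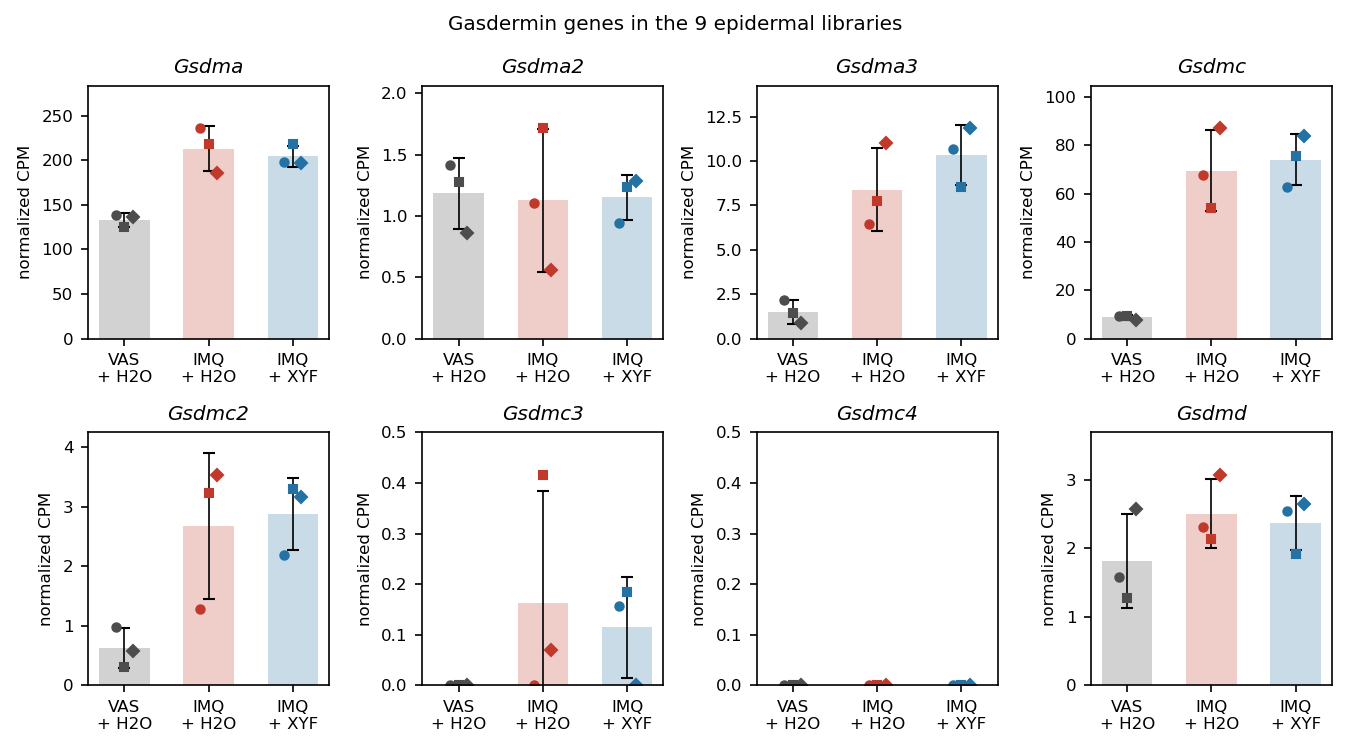
Normalized CPM (y axis, from 0, scaled per gene) of the 8 gasdermin genes in VAS + H2O, IMQ + H2O and IMQ + XYF, with points for libraries (circle, square and diamond for replicates 1, 2 and 3), bars for means and error bars for SD (n = 3). Imiquimod libraries of Gsdmc lie at 53.9 to 87.2 CPM over control libraries at 7.54 to 9.41 CPM, while Gsdma2 and Gsdmd overlap and Gsdmc4 is at 0.

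The neutrophil genes moved with imiquimod and with particular libraries. Their summed level over 7 genes was 14.6 to 18.3 CPM in VAS + H2O, against 280 to 2170 CPM in IMQ + H2O and 588 to 918 CPM in IMQ + XYF, and 3 of the 3 tested were called higher in IMQ + H2O. S100a8, S100a9 and Cxcr2, which keratinocytes also express, made those calls, whereas the defining gene Ly6g had 0 counts in 6 libraries and 22, 16 and 3 in IMQ + H2O replicate 3, IMQ + XYF replicate 1 and IMQ + XYF replicate 3. Csf3r had 5, 33 and 1642 counts in IMQ + H2O replicates 1, 2 and 3, where Gsdmc stood at 67.6, 53.9 and 87.2 CPM. In IMQ + XYF replicates 1, 2 and 3, Csf3r had 1459, 43 and 214 counts and Gsdmc 62.8, 75.7 and 83.7 CPM. The library richest in Csf3r thus had the highest Gsdmc of IMQ + H2O, and the richest of IMQ + XYF the lowest of that group. The part of these cells in the values was not tested. Without IMQ + H2O replicate 3, Gsdmc remained called at a log2 fold change of 2.78 (adjusted p = 0.00208) and Gsdma3 at 2.23 (adjusted p = 0.0253). Without VAS + H2O replicate 2, the library with the dermal genes, they were called at 3.04 (adjusted p = 0.0139) and 2.44 (adjusted p = 0.0404).

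The decoction did not move any gasdermin past the threshold. In IMQ + XYF against IMQ + H2O, 0.0281% of the 17793 genes tested were called, which is 5 genes. None of the 6 tested members was called by edgeR or by DESeq2, and 0 of them had an unadjusted p under 0.05, beside 5.43% of all genes tested. The values of all 8 members overlapped between these groups, and 10.7% of genes did not overlap.

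Gsdmc stood at 62.8, 75.7 and 83.7 CPM in IMQ + XYF, within the 53.9 to 87.2 CPM of IMQ + H2O. The fold was 1.07 with a 95% interval of 0.785 to 1.45. Gsdma stood at 198, 218 and 197 CPM, a fold of 0.963 with an interval of 0.815 to 1.14. A return towards the Vaseline level would be a fold under 1 here. On the log2 scale the lower bounds were -0.35 for Gsdmc and -0.30 for Gsdma. Under imiquimod these genes had been higher by 2.98 and 0.67, so a fall undoing part of either difference lies within its interval. Gsdma3 stood at 10.7, 8.51 and 11.9 CPM, with a fold of 1.24 and an interval of 0.850 to 1.80. Gsdmc2 stood at 2.18, 3.30 and 3.16 CPM, and its interval from 0.565 to 2.02 was wider. Gsdma2, at 0.943, 1.23 and 1.28 CPM, and Gsdmd, at 2.55, 1.91 and 2.65 CPM, had log2 fold changes of 0.04 (-0.96 to 1.03) and -0.08 (-0.62 to 0.47). The edgeR adjusted p was 0.9999 for each of the 6. An interval that includes no difference does not show that the groups are alike. Leaving out both libraries rich in Csf3r also gave 0 calls among the members.

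Against VAS + H2O, the IMQ + XYF libraries gave calls for Gsdmc, Gsdma3 and Gsdmc2 again. This comparison shares its libraries with the other comparisons and is no independent repeat of them. Of 17954 genes tested, 7.64% were called, 4.58% as higher and 3.05% as lower, and 46.8% of genes did not overlap. Gsdmc was 8.47-fold higher (log2 3.08 ± 0.15 SE, edgeR adjusted p = 0.000149), Gsdma3 6.89-fold (log2 2.78 ± 0.34 SE, adjusted p = 0.00237) and Gsdmc2 4.57-fold (log2 2.19 ± 0.42 SE, adjusted p = 0.0104). Gsdmc2 was called here with any 1 of the 6 libraries left out, at log2 fold changes of 1.88 to 2.70, but was not called by glmTreat. Gsdma was 1.54-fold higher (log2 0.62 ± 0.07 SE, adjusted p = 0.00208), again under the fold threshold. Gsdma2 at -0.05 (adjusted p = 0.915) and Gsdmd at 0.39 (adjusted p = 0.382) did not pass.

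**Figure D4:**
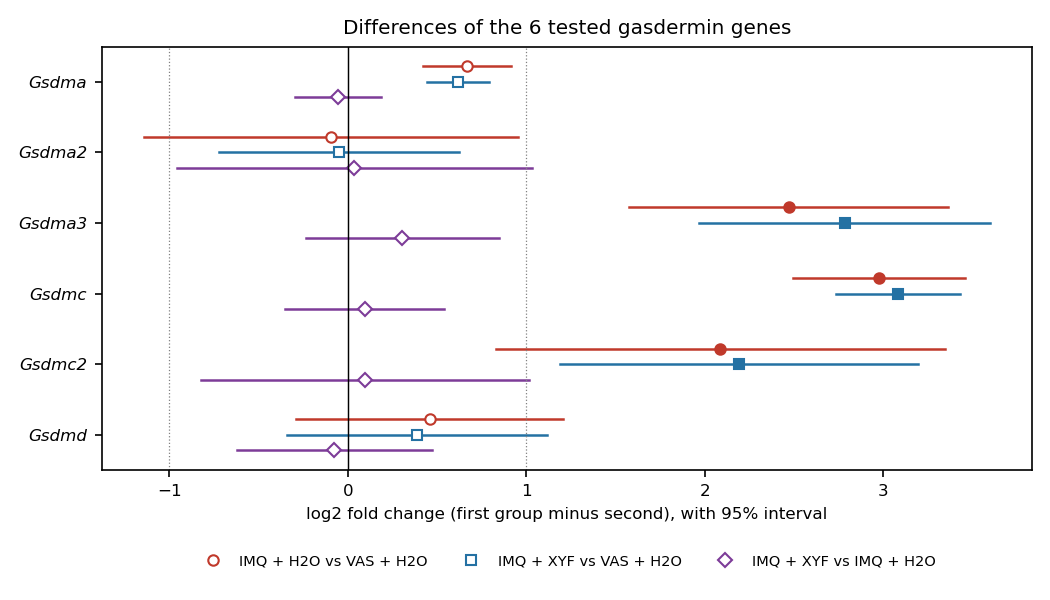
log2 fold change (x axis, first group minus second) with 95% interval for the 6 gasdermin genes that could be tested in the 3 comparisons, where filled marks passed both thresholds and dotted lines stand at -1 and 1. Gsdmc, Gsdma3 and Gsdmc2 lie between 2.09 and 3.08 against VAS + H2O, and all 6 intervals of IMQ + XYF against IMQ + H2O include 0.

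Genes around the pathway were counted from hand-written lists of 73 genes in the table, of which 12 are neighbours of the gasdermin loci rather than pathway genes. Against VAS + H2O, 6 of 62 tested were called higher in IMQ + H2O and 0 lower, beside 3.64% and 4.04% of all genes tested. The median log2 fold change of the 62 was 0.17, beside -0.03 over all genes tested. Of these calls 1, Csf3, is a neighbour that passed the filter through the IMQ + H2O libraries alone. Against the same controls, 10 of 62 were called higher and 0 lower in IMQ + XYF, beside 4.58% and 3.05% of all genes tested. Between IMQ + XYF and IMQ + H2O 0 of 63 were called, beside 0.0281% of all genes tested. These shares over all genes also stand beside the counts of each separate list below.

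Upstream of the pore, the inflammasome sensors and adaptor showed no call in IMQ + H2O among 10 tested genes, with a median log2 fold change of -0.07. Pycard, the adaptor that joins sensors to caspase 1, was at 94.0 CPM in VAS + H2O and 106 CPM in IMQ + H2O on average (log2 0.16, adjusted p = 0.360). Mefv, which encodes the sensor pyrin, had 0 counts in VAS + H2O, against 4, 0 and 164 in IMQ + H2O and 214, 10 and 19 in IMQ + XYF, most of them in both libraries rich in Csf3r. Mefv did not pass the filter in IMQ + H2O against VAS + H2O and was not tested there. In IMQ + XYF against VAS + H2O it passed the filter through the XYF libraries alone and was called, as 1 of the 10 calls above. A fold cannot be stated against a group at 0, and this call shows no difference between the imiquimod groups. Between IMQ + XYF and IMQ + H2O its log2 fold change was 0.12, without a call.

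Among the proteases that can cut gasdermins, 1 of 6 tested was called. Casp4, the mouse caspase 11 that senses bacterial lipopolysaccharide, stood at 1.44, 2.64 and 2.44 CPM in VAS + H2O, against 4.80, 3.80 and 7.13 CPM in IMQ + H2O and 4.01, 6.66 and 3.68 CPM in IMQ + XYF. Both imiquimod groups lay above the controls, with log2 fold changes of 1.26 (SE 0.33, adjusted p = 0.0385) and 1.14 (adjusted p = 0.0423). Casp1, which cuts pro-interleukin 1 beta as well as GSDMD, was at -0.22 (adjusted p = 0.496) and Casp8 at 0.13 (adjusted p = 0.289) in IMQ + H2O. The neutrophil and lymphocyte proteases Elane, Ctsg and Gzma had 0 counts in all 9 libraries. Gzmb, the other lymphocyte protease of the list, had 7 to 46 counts per library and a log2 fold change of 0.42 in IMQ + H2O (adjusted p = 0.588).

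Among 13 inhibitors and upstream death genes, 3 were called in IMQ + H2O. Mlkl, the pore-forming effector of necroptosis, went from 1.59 to 9.62 CPM on average (log2 2.58 ± 0.27 SE, adjusted p = 0.00575), and Ripk3, the kinase that activates it, from 6.82 to 21.1 CPM (log2 1.62 ± 0.27 SE, adjusted p = 0.0119). Serpinb1a, an inhibitor of neutrophil serine proteases, went from 7.17 to 27.2 CPM (log2 1.91 ± 0.24 SE, adjusted p = 0.00714). All 3 were also called in IMQ + XYF against VAS + H2O, at log2 fold changes of 1.75 (Ripk3) to 2.83 (Mlkl). There Gbp2 and Gbp3, interferon-induced GTPases that act on intracellular bacteria, were called as well, at 1.90 (adjusted p = 0.0258) and 2.15 (adjusted p = 0.0427). In IMQ + H2O they stood at 1.37 (adjusted p = 0.0746) and 1.38 (adjusted p = 0.165). None of the 6 transcription factors was called in IMQ + H2O, where Irf2, an activator of Gsdmd in myeloid cells, was at 0.14 (adjusted p = 0.707).

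Of 16 pore partners, repair genes and released factors, 1 was called in IMQ + H2O. Il1a, an alarmin of keratinocytes, went from 5.76 to 25.8 CPM (log2 2.15 ± 0.23 SE, adjusted p = 0.00575). Il1b stood at 3.49, 5.86 and 3.04 CPM in VAS + H2O, against 7.39, 14.4 and 193 CPM in IMQ + H2O and 119, 11.8 and 39.5 CPM in IMQ + XYF, with its highest values in both libraries rich in Csf3r. Il1b missed the threshold in IMQ + H2O (log2 4.11, adjusted p = 0.0591) and passed it in IMQ + XYF (log2 3.79 ± 0.83 SE, adjusted p = 0.0164). Ninj1, which ruptures the membrane after the pores form, was lower at -0.44 in IMQ + H2O (adjusted p = 0.0492) and -0.42 in IMQ + XYF (adjusted p = 0.0249), short of the fold threshold. The gasdermin relatives listed as Dfna5 (Gsdme) and Dfnb59 (Pjvk) are no members here. Dfna5 averaged 7.64, 8.75 and 7.38 CPM in VAS + H2O, IMQ + H2O and IMQ + XYF, with a log2 fold change of 0.18 between the groups given water (adjusted p = 0.384), and Dfnb59 had 5 counts in VAS + H2O replicate 1 and 0 elsewhere.

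**Figure D5:**
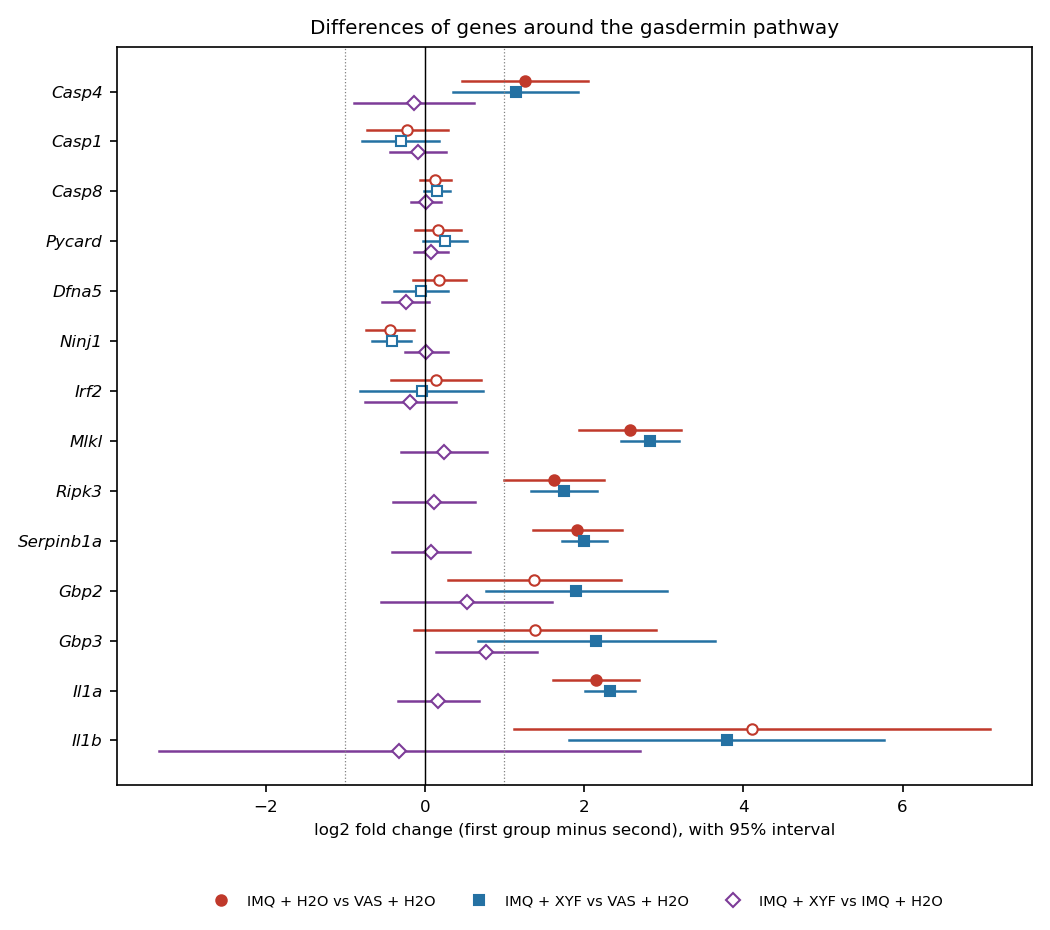
log2 fold change (x axis, first group minus second) with 95% interval for 14 genes around the gasdermin pathway in the 3 comparisons, where filled marks passed both thresholds and dotted lines stand at -1 and 1. Mlkl, Ripk3, Serpinb1a, Il1a and Casp4 are filled in both comparisons with VAS + H2O, and no gene is filled between IMQ + XYF and IMQ + H2O.

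The genes next to the gasdermin loci differed in both directions, mostly by less than the fold threshold. In IMQ + H2O against VAS + H2O 1 of 10 tested was called, Csf3, the granulocyte growth factor near the A members, with 0, 0 and 2 counts in VAS + H2O, against 14, 28 and 142 in IMQ + H2O and 66, 7 and 29 in IMQ + XYF. Csf3 passed the filter through the IMQ + H2O libraries alone, and it was not tested in IMQ + XYF against VAS + H2O. No fitted fold is given for it because the control counts lie at or under the floor. At the same locus Psmd3, a proteasome subunit, was at 0.36 (adjusted p = 0.0360), Ormdl3, a regulator of sphingolipid synthesis, at -0.47 (adjusted p = 0.0224) and Thra, a thyroid hormone receptor, at -0.95 (adjusted p = 0.0145), none past the fold threshold. Beside the C members, Fam49b was at 0.74 (adjusted p = 0.0425). These neighbours were named after their values were seen, Csf3 excepted.

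Promoter sequence from RefSeq on GRCm38.p6 was matched for Gsdma3 and Gsdmc3. No promoter was matched for its neighbour Gsdma2 or for Gsdma, Gsdmc and Gsdmc2, so these were not searched or compared. The Gsdma3 promoter is shown because this gene rose in IMQ + H2O. It covers the 250 bases before the start, with capitals at the motif matches found.
Gsdma3 promoter, chr11:98626099-98626348, plus strand: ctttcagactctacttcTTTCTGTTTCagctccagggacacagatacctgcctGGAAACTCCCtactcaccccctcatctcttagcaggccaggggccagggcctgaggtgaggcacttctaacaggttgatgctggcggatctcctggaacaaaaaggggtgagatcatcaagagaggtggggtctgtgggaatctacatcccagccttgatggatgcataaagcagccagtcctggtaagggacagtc
Motifs were searched on both strands from 250 bases before the start to 50 after it, a longer window than the stretch shown. The interferon response type (TTTC, any 2 bases, TTTC) matched at -233 and the NF-kB type (GGGA, any base, TTTCC) at -197 on the reverse strand. These motifs occur in 3.44% and 0.411% of 32851 promoters in windows of that longer length. No match was found in the Gsdma3 window for the AP-1 type TGANTCA (7.81% of promoters), the STAT type TTCNNNGAA (8.30%), the grainyhead type AACCGGTT (0.146%) or TATAAA (13.6%). The Gsdmc3 promoter held none of the 6. A match is a string of letters, not a measured binding site.

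The genes whose log2 CPM ran most like each member over the 9 libraries were listed as a description, since the libraries share groups and depth. For Gsdma they were Il1f6 (Pearson r = 0.988), Slc34a2 (0.985) and Il1f9 (0.984), of which Il1f6 and Il1f9 encode interleukin 36 cytokines of keratinocytes. For Gsdmc they were Col23a1 (0.997), Prss27 (0.996) and Gm19345 (0.995), and for Gsdma3 they included Prss22 (0.992) and Mrpl46 (0.991). Such values were common, since 1874 genes reached an r of 0.9 with Gsdmc, 1295 with Gsdma3 and 493 with Gsdma, of 18486 compared. Gsdmc2 ran most like Gna11 (0.977), Dr1 (0.977) and Irak4 (0.975), with 590 genes over 0.9. The members whose groups overlapped had few partners, 7 for Gsdma2, led by Pbx3 (0.947), Nanos3 (0.941) and Tmem237 (0.935), and 41 for Gsdmd, led by Gm11449 (0.983), Bnip1 (0.975) and CT571252.1 (0.965).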

How the data were processed

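RNA sequencing counts of epidermal ear sheets were analysed in 9 libraries, 3 per group, with groups taken from the labels. Per the paper's methods and the submitters' processing notes, the authors aligned reads of strand-specific TruSeq libraries with STAR 2.5 to GRCm38 with Ensembl release 90, assembled transcripts with StringTie and tested genes with DESeq2. The paper's methods name a TruSeq kit without calling the libraries strand-specific. The notes also name FastQC, Cuffnorm and DESeq 1.22.1. The authors deposited whole-number counts per gene without normalization. The counting tool, its strand setting and the read length are not given in the sources used here. Gavage frequency differs between labels and legends and is not given.

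Each comparison was fitted on its own 6 libraries in R 4.3.3 with edgeR 4.0.16 (TMM, filterByExpr, quasi-likelihood test, Benjamini-Hochberg adjustment over all genes tested). Standard errors and 95% intervals came from the test statistic. CPM used TMM factors (0.956 to 1.06) over the 18492 genes that passed the filter in the 9 libraries, and log2 CPM a prior count of 2. Alternatives were DESeq2 1.42.0, RLE factors, no filter, at least 10 counts in every library, 1 fit of all 9 libraries, a replicate block, adjusted p alone, a glmTreat test with a log2 fold change of 1 as its null, and each library left out. Leaving out IMQ + H2O replicate 3 and IMQ + XYF replicate 1 together was added after seeing the data. The fits were tested on simulated data.

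Members, gene lists and marker lists were chosen with earlier results of these data known. Named genes are the 8 members, every list gene called in any comparison, Dfna5, Dfnb59, Casp1, Casp4, Casp8, Pycard, Irf2 and Ninj1, and the 3 genes most correlated with each tested member. Others were named after their values were seen. This rule also names 2 genes that are not reported here. Positions, exon lengths (union of exons) and transcripts came from GENCODE M21 on GRCm38, which held 52403 of the 52550 identifiers. RefSeq promoters matched 2 of the 8 members.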

Additional observations from a re-analysis of the deposited data

How the results depend on the processing

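In IMQ + H2O against VAS + H2O, 3 gasdermins were called, and 1 (Gsdmc) in a glmTreat test with a log2 fold change of 1 as its null. With each library left out, 2 to 3 were called. Gsdmc and Gsdma3 were called under every other alternative run in this comparison. Same-numbered libraries of different groups correlated at -0.133 to 0.105 in their deviations from group means, and differently numbered ones at -0.223 to 0.172. These correlations show no pairing by the numbers in the labels, but they cannot exclude one. With the replicate block 2 members were called, and Gsdmc2 missed the threshold at 2.08 (adjusted p = 0.100). Calls in the pathway and neighbour lists were 6 (1 a neighbour, Csf3), with 1 by glmTreat, 19 (5 of them neighbours) with adjusted p alone and 4 to 7 with a library left out. In IMQ + XYF against VAS + H2O the 10 such calls became 4, 28 and 6 to 9, and 2 members (Gsdmc and Gsdma3) were called by glmTreat.

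Small differences changed sign with a library left out. Gsdma2 ranged from -0.51 to 0.24 in IMQ + H2O and from -0.21 to 0.11 in IMQ + XYF against VAS + H2O. Between IMQ + XYF and IMQ + H2O, Gsdma ranged from -0.15 to 0.0189, Gsdma2 from -0.30 to 0.49, Gsdmc from -0.0586 to 0.29, Gsdmc2 from -0.24 to 0.34 and Gsdmd from -0.18 to 0.10. Without IMQ + H2O replicate 3 and IMQ + XYF replicate 1 together, Gsdma2 was at -0.17 and Gsdmd at 0.0391. No member was called in this comparison under any alternative run. The causes were not tested.

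Over all genes, 1383 calls for imiquimod became 65 by glmTreat, 3986 with adjusted p alone and 711 to 1314 with a library left out (lowest without IMQ + H2O replicate 3). For IMQ + XYF against VAS + H2O, 1371 became 162, 5152 and 996 to 1350. For IMQ + XYF against IMQ + H2O, 5 became 129 with DESeq2, 1 in the fit of all 9 libraries, 0 with the block, 0 by glmTreat, 0 without both libraries and 0 to 5 with a library left out. Depth limits Gsdmc3, Gsdmc4, Gsdma2, Gsdmc2 and Gsdmd, which rest on at most 162 counts per library.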
